A study of Mus musculus with 6 samples.

Results

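The mouse annotation behind the deposited table holds 44 genes that encode collagen chains, taken as every row whose gene name reads Col, a number, a, a number, out of 55536 rows in all. They were sorted by the textbook class of the protein into 11 fibrillar collagens, 8 basement membrane collagens (the 6 type IV chains and types XV and XVIII) and 25 other collagens. Their RNA was measured by bulk RNA sequencing in the livers of 3 Sirt5-/- and 3 Sirt5+/+ mice, all male and of the C57BL/6 strain. SIRT5 is a mitochondrial enzyme that removes succinyl, malonyl and glutaryl groups from lysines. All 6 mice carried the same oncogenic challenge. At 4 weeks of age they received 50 µg of the plasmid PB[CMV-myc-YAP5SA]DS with 10 µg of the transposase plasmid Act-PBase by hydrodynamic injection (HDI), a fast, large-volume tail vein injection that takes plasmid DNA into hepatocytes, and livers were taken 20 days after it. YAP5SA is a form of the transcriptional coactivator YAP that escapes inhibitory phosphorylation, here driven by the CMV promoter. The protocol also names an RFP plasmid, PB[Act-RFP]DS, but no RFP liver is among the samples used here, so each comparison is between genotypes in livers given YAP5SA. The labels do not say whether the deletion is restricted to a cell type, nor what share of hepatocytes took up the plasmid.

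Collagens are proteins of the extracellular matrix in which chains wind into a triple helix. Fibrillar collagens, with types I, III and V the main ones in liver, form the banded fibers that build up in a scar. Type IV chains form the sheet-like network of basement membranes, and types XV and XVIII sit at the edge of that sheet. The remaining types decorate fibrils, form beaded filaments or span cell membranes. In liver, activated stellate cells and portal fibroblasts are known as the main source of fibrillar collagen, endothelial cells and bile duct cells also make type IV chains, and hepatocytes are known to make type XVIII, whose C-terminal fragment is endostatin.

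Library totals ran from 19307808 to 24330797 counts. Genotypes are compared by CPM (counts scaled to a common library total, with TMM factors), and genes with each other by the deposited TPM, which are per length. A total of 3 counts in a library corresponds to 0.0827 to 0.393 CPM, the limit below which a level cannot be told from none. Sirt5 had 0.817, 1.2405 and 0.497 CPM in Sirt5-/- livers, against 16.7, 15.7 and 12.6 CPM in Sirt5+/+ livers, a log2 fold change of -4.13 ± 0.38 (SE, adjusted p = 0.00146), so the targeted gene follows the labels. The mitochondrial genome gave 40.8, 21.5 and 17.5% of the counts of Sirt5-/- livers and 7.20, 6.58 and 46.4% of those of Sirt5+/+ livers. The TMM factors ran from 0.396 in Sirt5+/+ replicate 3, the library with the most mitochondrial counts, to 1.68 in Sirt5-/- replicate 3. With library totals in place of TMM factors, the median over all genes tested is a log2 fold change of 0.60 and not -0.08, and 2438 genes are called higher and 325 lower, against 2575 and 2525 with TMM. The collagen changes below are therefore relative to a scale on which the median gene is near 0.

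Of the 44 collagen genes, 30 passed the filter on low counts, and 17 of these rose and 2 fell in Sirt5-/- livers at an adjusted p under 0.05 (edgeR quasi-likelihood test, Benjamini-Hochberg adjusted over 14799 genes). That is 63.3% of the tested collagens called in either direction, against a background of 34.5% of all genes tested; 17.4% of all genes were called higher and 17.1% lower. There were 6 tested members, among them the called Col4a4, Col7a1 and Col8a1, that reached the filter's level in every Sirt5-/- library but not in every Sirt5+/+ library. Their presence among the tested genes is thus tied to passing in Sirt5-/- livers. Passing there is not always a higher mean. Col13a1, also of the 6 and not called, averaged 0.774 CPM in Sirt5-/- livers and 1.41 CPM in Sirt5+/+ livers. The median log2 fold change was 1.72 over the 8 fibrillar collagens tested, 1.58 over the 8 basement membrane collagens and 1.00 over 14 others. Levels of the 2 genotypes did not overlap for 18 collagens higher in Sirt5-/- livers and 3 lower, where the background over all genes tested was 25.8% higher, 24% lower and 49.8% in either direction. The authors' deposited table calls 22 of the 44 collagens, among them all 19 called here with the same direction. Of the 30 collagens tested here it calls 20, where it calls 39.3% of all genes tested here. Col2a1 and Col9a3, which it also calls, were not tested here. In bulk tissue, a change in the number of cells that make a collagen and a change in RNA per cell cannot be told apart.

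**Figure D1:**
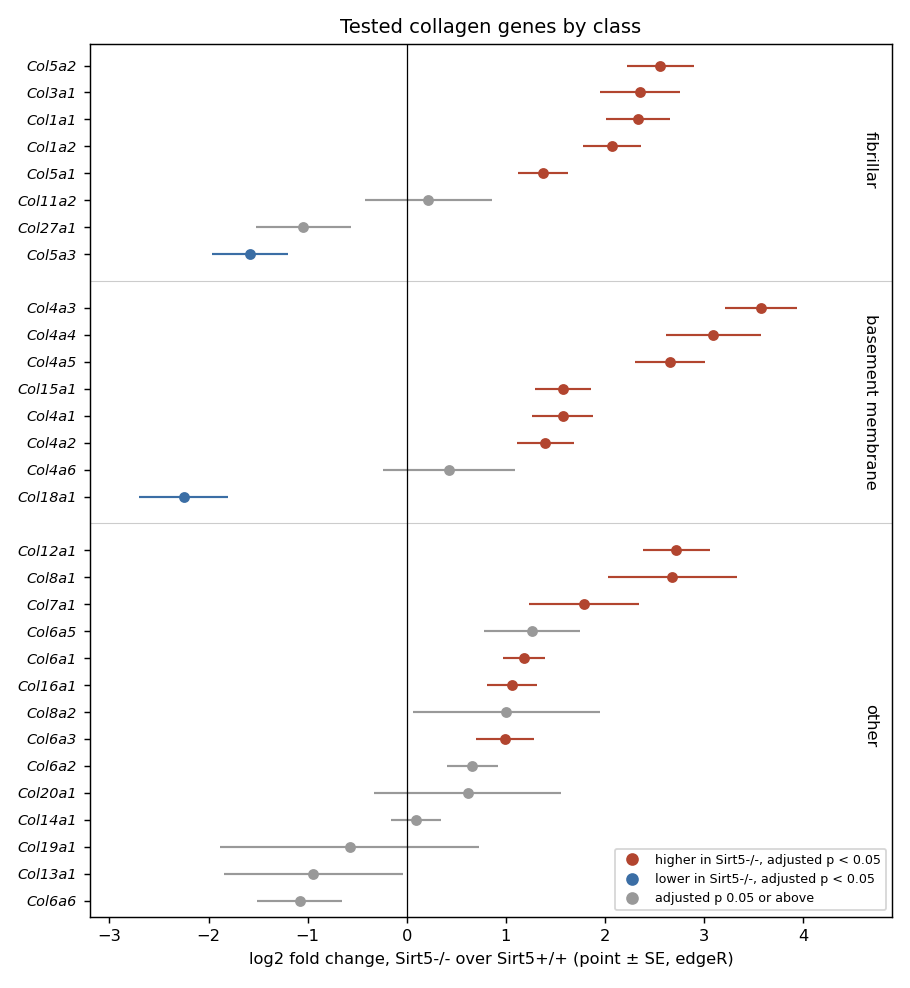
Log2 fold change (Sirt5-/- over Sirt5+/+) of the 30 tested collagen genes by class, with bars of 1 SE from edgeR; coloured points passed an adjusted p of 0.05. The points run from -2.25 for Col18a1 to 3.58 for Col4a3, with 17 called genes right of 0 and 2 left of it.

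Among the fibrillar collagens, the chains of types I and III and 2 of the 3 type V chains rose, and Col5a3 fell. Col3a1, the single chain of type III collagen, had 1237, 1079 and 1001 CPM in Sirt5-/- livers, against 143, 201 and 306 CPM in Sirt5+/+ livers. It was 5.11-fold higher, a log2 fold change of 2.35 ± 0.40 (SE, adjusted p = 0.00381). Col1a1, the alpha-1 chain of type I collagen, had 446, 554 and 493 CPM in Sirt5-/- livers and 88.9, 79.6 and 128 CPM in Sirt5+/+ livers. Its log2 fold change was 2.33 ± 0.32 (adjusted p = 0.00223). Col1a2, whose alpha-2 chain joins a pair of alpha-1 chains in the usual type I helix, had 308, 415 and 343 CPM in Sirt5-/- livers and 69.9, 88.7 and 95.1 CPM in Sirt5+/+ livers (log2 fold change 2.07 ± 0.29, adjusted p = 0.00232). For these 3 genes the lowest Sirt5-/- library stood more than 3-fold above the highest Sirt5+/+ library.

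Type V collagen sits inside type I fibrils and starts their assembly. Col5a2 had 69.7, 72.7 and 85.1 CPM in Sirt5-/- livers, against 7.54, 17.1 and 14.02 CPM in Sirt5+/+ livers, the largest rise of a fibrillar chain (log2 fold change 2.56 ± 0.34, adjusted p = 0.00201). Col5a1 had 35.5, 41.7 and 39.9 CPM in Sirt5-/- livers and 17.5, 16.6 and 10.9 CPM in Sirt5+/+ livers (1.37 ± 0.25, adjusted p = 0.00489). The groups again did not overlap. Col5a3, the less widespread chain of type V, went the other way, with 10.6, 6.04 and 4.67 CPM in Sirt5-/- livers and 13.5, 23.3 and 26.7 CPM in Sirt5+/+ livers. Its log2 fold change was -1.58 ± 0.38 (adjusted p = 0.0141). This call ended with library totals (adjusted p = 0.358) and without Sirt5-/- replicate 2 (0.0683), Sirt5-/- replicate 3 (0.0670) or Sirt5+/+ replicate 2 (0.0517).

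Col27a1, a fibrillar chain best known from cartilage, had 18.5, 13.8 and 9.77 CPM in Sirt5-/- livers and 14.1, 20.96 and 52.1 CPM in Sirt5+/+ livers and was not called (log2 fold change -1.04 ± 0.48, adjusted p = 0.128). Col11a2, a chain of the cartilage fibril collagen type XI, had a log2 fold change of 0.21 ± 0.64 (adjusted p = 0.822) at a mean below 1 CPM in each genotype. The cartilage chains Col2a1 and Col11a1 and the fibrillar Col24a1 were too low to test.

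The RefSeq promoter windows of the type I and III genes show the start regions of 2 of the genes that rose together. They are printed 5′ to 3′ on the gene's strand, from 250 bases before to 50 bases after a RefSeq start (GRCm38.p6), with capitals on any match, on either strand, to the TATA box TATAAA, the NF-Y motif CCAAT, the Sp1 box GGGCGG, the TEAD motif GGAATG or the AP-1 motif TGANTCA. No 2 matches overlap in the windows printed. Col1a2 lies at chr6:4505368-4505667 on the plus strand, and Col3a1 at chr1:45311288-45311587 on the plus strand.

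Col1a2: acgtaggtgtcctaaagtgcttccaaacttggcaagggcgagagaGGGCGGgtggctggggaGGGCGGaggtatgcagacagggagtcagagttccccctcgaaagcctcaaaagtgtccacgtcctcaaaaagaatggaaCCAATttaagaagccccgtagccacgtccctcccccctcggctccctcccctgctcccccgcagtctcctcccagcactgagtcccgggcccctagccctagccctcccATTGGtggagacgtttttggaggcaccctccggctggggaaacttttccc

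Col3a1: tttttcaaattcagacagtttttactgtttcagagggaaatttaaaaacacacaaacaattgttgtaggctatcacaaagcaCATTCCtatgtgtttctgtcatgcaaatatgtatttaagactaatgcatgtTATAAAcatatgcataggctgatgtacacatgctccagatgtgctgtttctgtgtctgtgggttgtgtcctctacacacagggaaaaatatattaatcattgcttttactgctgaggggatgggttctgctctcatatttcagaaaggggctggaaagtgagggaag

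The windows differ in make-up. That of Col1a2 has 61.0% GC, 2 matches to GGGCGG and 2 to CCAAT, and that of Col3a1 has 37.7% GC, 1 match to TATAAA and 1 to GGAATG, the core of the motif bound by TEAD, the DNA-binding partner of YAP. Over the 38 windows found for 35 collagen genes, GGAATG was in 13.2%, against 14.7% of all 32851 promoter windows. GGGCGG was in 60.5% of collagen windows and 35.7% of all windows, with a median GC content of 59.8% and 52.7%. TATAAA was in 13.2 and 13.6%, CCAAT in 34.2 and 37.4%, and TGANTCA in 2.63 and 7.81% of collagen and of all windows. A match is a run of letters and not a measured binding site.

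**Figure D2:**
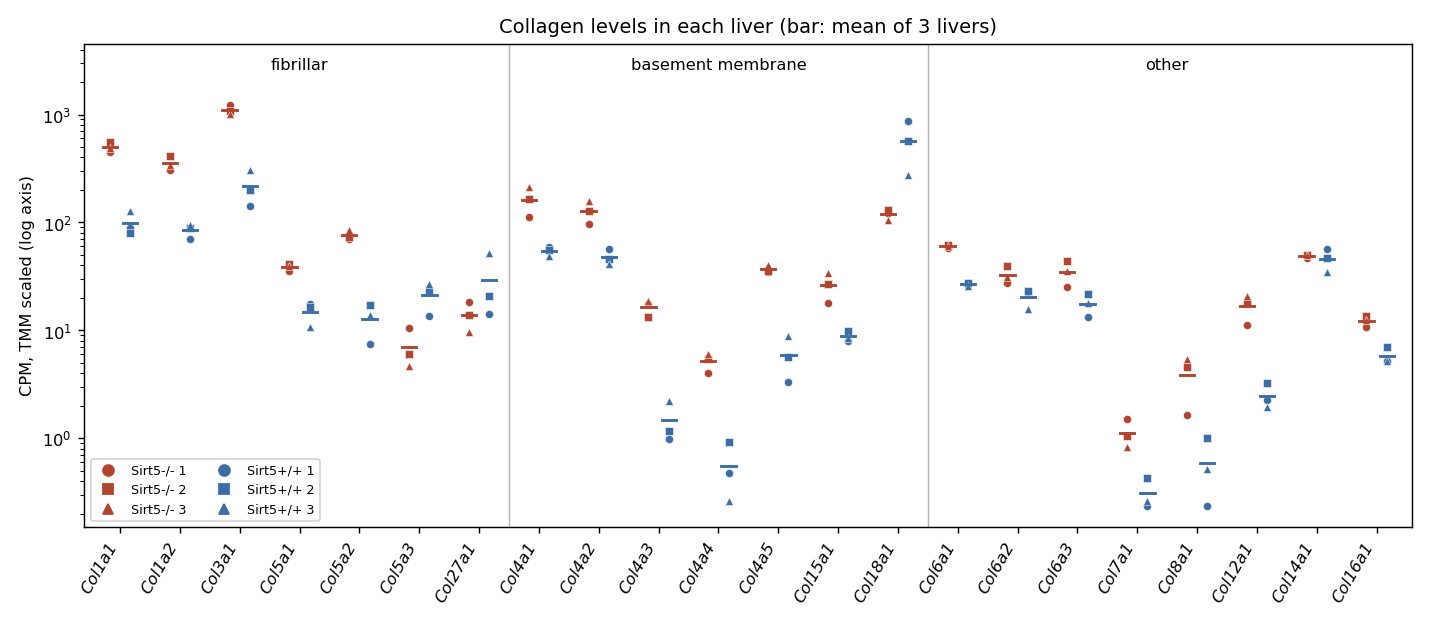
CPM with TMM scaling (log axis) of called and abundant collagen genes in each library, Sirt5-/- left of Sirt5+/+; points are single livers and bars are means of 3. The Sirt5-/- points of Col3a1, Col1a1 and Col1a2 lie between 308 and 1237 CPM, above the Sirt5+/+ points between 69.9 and 306 CPM, and those of Col18a1 lie below theirs.

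Of the 6 type IV chains 5 rose, where 17.4% of all genes tested were called higher, and the pairs of chains differed in size of change. Col4a1 and Col4a2 make the helix found in nearly every basement membrane. Col4a1 had 112, 166 and 211 CPM in Sirt5-/- livers and 59.6, 56.0 and 48.9 CPM in Sirt5+/+ livers (log2 fold change 1.57 ± 0.31, adjusted p = 0.00600). Col4a2 had 97.5, 127 and 157 CPM in Sirt5-/- livers and 57.1, 46.2 and 41.3 CPM in Sirt5+/+ livers (1.40 ± 0.28, adjusted p = 0.00717). Both genes had the same order of libraries within each genotype, lowest in Sirt5-/- replicate 1 and highest in Sirt5-/- replicate 3.

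Col4a3, Col4a4 and Col4a5 make the helix of specialised basement membranes such as that of the kidney glomerulus. Col4a3 had 17.4, 13.3 and 18.9 CPM in Sirt5-/- livers, against 0.996, 1.18 and 2.23 CPM in Sirt5+/+ livers, an 11.9-fold difference and the highest of any collagen (log2 fold change 3.58 ± 0.36, adjusted p = 0.00146). Col4a4 had 4.02, 5.49 and 6.05 CPM in Sirt5-/- livers and 0.474, 0.928 and 0.262 CPM in Sirt5+/+ livers (3.09 ± 0.47, adjusted p = 0.00280), where the last value is 2 counts and below the limit of 3 counts. Col4a5 had 34.6, 35.5 and 40.3 CPM in Sirt5-/- livers and 3.32, 5.68 and 8.91 CPM in Sirt5+/+ livers (2.66 ± 0.36, adjusted p = 0.00207). These chains came from low levels, since Col4a3 averaged 0.133 TPM and Col4a4 0.0600 TPM in Sirt5+/+ livers. Of the exonic bases of Col4a3, 5.65% are overlapped by an antisense gene, and the sources used here do not state whether counting used strand. Col4a6, the partner of Col4a5 in smooth muscle basement membranes, had 0.525, 1.05 and 1.35 CPM in Sirt5-/- livers and 0.237, 1.18 and 0.786 CPM in Sirt5+/+ livers, which overlap (0.42 ± 0.67, adjusted p = 0.660).

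The type IV genes lie head to head in 3 pairs. In GENCODE M21 (GRCm38) Col4a1 spans chr8:11198423-11312826 on the minus strand and Col4a2 chr8:11312805-11449287 on the plus strand, so that their first exons overlap by 22 bases. Col4a4 and Col4a3 on chromosome 1 are 71 bases apart, and Col4a6 and Col4a5 on chromosome X are 1308 bases apart. In the last pair Col4a5 rose while the level of Col4a6 was within the spread of its libraries. The promoter windows of Col4a1 and Col4a2 are shown because they share 78 bases, read on opposite strands: that of Col4a1 is chr8:11312777-11313076 on the minus strand and that of Col4a2 is chr8:11312555-11312854 on the plus strand.

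Col4a1: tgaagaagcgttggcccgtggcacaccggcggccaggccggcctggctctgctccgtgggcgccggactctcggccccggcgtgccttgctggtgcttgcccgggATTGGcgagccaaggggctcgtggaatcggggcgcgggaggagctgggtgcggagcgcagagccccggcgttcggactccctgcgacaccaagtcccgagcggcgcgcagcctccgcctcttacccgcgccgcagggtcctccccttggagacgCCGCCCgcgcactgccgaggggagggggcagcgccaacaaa

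Col4a2: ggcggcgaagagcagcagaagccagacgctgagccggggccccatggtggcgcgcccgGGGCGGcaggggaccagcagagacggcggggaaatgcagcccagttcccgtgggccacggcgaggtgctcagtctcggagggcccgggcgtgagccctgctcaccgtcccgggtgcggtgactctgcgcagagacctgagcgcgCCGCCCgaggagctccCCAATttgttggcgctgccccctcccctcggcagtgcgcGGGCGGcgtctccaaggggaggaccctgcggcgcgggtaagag

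Capitals mark the same motifs as above. Both windows are GC-rich, at 74.0% for Col4a1 and 73.7% for Col4a2. The CCGCCC at position 10 of the Col4a1 window, counted from the RefSeq start, and the GGGCGG at position 8 of the Col4a2 window are the same bases of the shared stretch, read on opposite strands. Neither window holds a match to the TATA box, the TEAD motif or the AP-1 motif.

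The basement membrane zone collagens split. Col15a1, which links the basement membrane to the fibrils beneath it, had 18.02, 27.1 and 33.8 CPM in Sirt5-/- livers and 7.92, 9.96 and 8.52 CPM in Sirt5+/+ livers (log2 fold change 1.58 ± 0.28, adjusted p = 0.00446). Col18a1 had 124, 130.5 and 105 CPM in Sirt5-/- livers, against 870.05, 563 and 276 CPM in Sirt5+/+ livers. By TPM it was the most abundant collagen RNA of the Sirt5+/+ livers apart from Col19a1, and its log2 fold change of -2.25 ± 0.45 (adjusted p = 0.00655) was the largest fall of any collagen. The Sirt5-/- libraries lay close together, while the Sirt5+/+ libraries spanned a wide range, with replicate 3 nearest to the Sirt5-/- level. The call ended with library totals (log2 fold change -1.78, adjusted p = 0.0585). Of 8 hepatocyte markers, 5 (Hnf4a, Cps1, F2, Ahsg and Ttr) fell and 0 rose in Sirt5-/- livers. Over all genes tested 17.1% were called lower and 17.4% higher. The summed level of all 8 ran from 18548 to 36121 CPM in Sirt5-/- livers and from 78963 to 103530 CPM in Sirt5+/+ livers. Most of this sum is Alb and Apoa1, which were not called (edgeR adjusted p of 0.0607 and 0.238). Apoc3 was not called either (0.0516), and Apoa1 overlapped between genotypes. Ahsg and Ttr each lost their call when any library other than Sirt5+/+ replicate 3 was left out (adjusted p of up to 0.0979 and 0.164). The part of these markers in the Col18a1 result was not tested.

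Col18a1 has 2 RefSeq start regions more than 50 kb apart, both shown because the gene fell while the other abundant basement membrane genes rose. The upstream window is chr10:77166481-77166780 and the downstream window chr10:77113656-77113955, both on the minus strand.

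Col18a1 upstream: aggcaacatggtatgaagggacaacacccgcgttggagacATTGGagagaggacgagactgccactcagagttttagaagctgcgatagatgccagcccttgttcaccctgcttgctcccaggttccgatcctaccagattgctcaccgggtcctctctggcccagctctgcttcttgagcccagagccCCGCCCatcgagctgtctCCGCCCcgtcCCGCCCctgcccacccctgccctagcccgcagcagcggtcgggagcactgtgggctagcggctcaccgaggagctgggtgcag

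Col18a1 downstream: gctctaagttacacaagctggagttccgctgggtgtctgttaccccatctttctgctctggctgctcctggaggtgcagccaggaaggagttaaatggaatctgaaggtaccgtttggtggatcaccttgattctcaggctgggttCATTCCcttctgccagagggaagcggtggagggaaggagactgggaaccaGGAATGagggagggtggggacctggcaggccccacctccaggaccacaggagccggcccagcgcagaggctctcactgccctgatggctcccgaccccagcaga

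The upstream window holds 3 matches to GGGCGG and 1 to CCAAT. The downstream window holds neither, and has 2 matches to GGAATG, at positions -104 and -54. The counts are per gene and do not say which start was used. The length that links the deposited counts to the deposited TPM of Col18a1 was 2747, 2913 and 3050 bases in Sirt5-/- libraries and 3887, 4018 and 2733 bases in Sirt5+/+ libraries, which overlap.

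Among the 14 other collagens tested, 6 rose and 0 fell. That is 42.9% called, near the 34.5% of all genes tested. Without Sirt5-/- replicate 2 or without Sirt5-/- replicate 3, 2 rose and 0 fell, and without Sirt5+/+ replicate 3, 8 rose and 2 fell. Over all genes tested, these fits called 2677, 2531 and 7647 genes, against 5100 with all libraries. The beaded filament collagen type VI, which lies between fibrils and basement membranes, gave Col6a1 with 58.0, 62.0 and 60.9 CPM in Sirt5-/- livers and 26.4, 27.5 and 26.1 CPM in Sirt5+/+ livers. Its log2 fold change was 1.18 ± 0.21 (adjusted p = 0.00459), and library totals ended this call (adjusted p = 0.0533). Col6a3 had 25.2, 44.2 and 35.8 CPM in Sirt5-/- livers and 13.3, 21.7 and 17.95 CPM in Sirt5+/+ livers (0.99 ± 0.29, adjusted p = 0.0310). Library totals (adjusted p = 0.0793) or leaving out Sirt5-/- replicate 2 (0.146), Sirt5-/- replicate 3 (0.0993) or Sirt5+/+ replicate 1 (0.0670) ended the call of Col6a3. Col6a2, the third chain of the common helix, had 27.5, 39.4 and 31.1 CPM in Sirt5-/- livers and 22.6, 23.4 and 15.7 CPM in Sirt5+/+ livers, did not overlap and was not called (0.66 ± 0.26, adjusted p = 0.0776).

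The less common type VI chains were not called. Col6a5 had 15.4, 17.3 and 9.36 CPM in Sirt5-/- livers and 3.04, 10.4 and 3.67 CPM in Sirt5+/+ livers (1.27 ± 0.49, adjusted p = 0.0764); the authors' deposited table calls it. Col6a6 had 1.57, 2.15 and 0.939 CPM in Sirt5-/- livers and 2.94, 4.21 and 2.62 CPM in Sirt5+/+ livers (-1.08 ± 0.43, adjusted p = 0.0845). Col6a6 was thus lower in each Sirt5-/- library than in any Sirt5+/+ library, while Col6a5 overlapped, and limma-voom calls Col6a6 lower.

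Fibril-associated collagens sit on the surface of fibrils. Col12a1, known to rise in matrix under tension, had 11.2, 18.03 and 21.1 CPM in Sirt5-/- livers, against 2.28, 3.25 and 1.97 CPM in Sirt5+/+ livers (2.72 ± 0.34, adjusted p = 0.00185). Col16a1 had 10.7, 13.5 and 12.5 CPM in Sirt5-/- livers and 5.22, 7.03 and 5.24 CPM in Sirt5+/+ livers (1.06 ± 0.25, adjusted p = 0.0126), a call that ended with library totals (0.0859) and without Sirt5-/- replicate 2 (0.0754) or Sirt5-/- replicate 3 (0.0611). Col14a1, which limits fibril width, had 46.6, 50.0 and 50.1 CPM in Sirt5-/- livers and 56.7, 46.5 and 34.5 CPM in Sirt5+/+ livers. The genotypes overlapped, and the log2 fold change of 0.09 ± 0.25 (adjusted p = 0.813) stands beside 2.33 for Col1a1, whose fibrils it coats.

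The short-chain network collagen Col8a1, known from vessel walls, had 1.63, 4.6035 and 5.41 CPM in Sirt5-/- livers and 0.237, 1.00 and 0.524 CPM in Sirt5+/+ livers (2.68 ± 0.65, adjusted p = 0.0145). Without Sirt5-/- replicate 2 or Sirt5-/- replicate 3 the adjusted p was 0.0567 and 0.0675, and without Sirt5+/+ replicate 2 the log2 fold change was 3.48. Col7a1, the anchoring fibril chain that ties skin epithelium to its matrix, had 1.52, 1.05 and 0.828 CPM in Sirt5-/- livers and 0.237, 0.429 and 0.262 CPM in Sirt5+/+ livers (1.79 ± 0.55, adjusted p = 0.0362). The call of Col7a1 ended when any library other than Sirt5+/+ replicate 3 was left out, with an adjusted p of up to 0.124, and also with library totals (0.0626), with no low-count filter (0.0828), with limma-voom (0.0505) and without the mitochondria-richest library of each genotype (0.0681). In Sirt5+/+ replicate 3 Col7a1 had 2 counts, below the limit of 3 counts. Col8a2, Col13a1 and Col20a1 were tested at means of at most 2.17 CPM in either genotype and not called. The other 11 genes too low to test were Col6a4, Col9a1, Col9a2, Col9a3, Col10a1, Col17a1, Col22a1, Col23a1, Col25a1, Col26a1 and Col28a1. Col9a1 and Col28a1 had no count in any library, and the 14 untested collagens had at most 50 counts in a library.

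Col19a1, a minor fibril-associated collagen, stands apart from the rest. It had 31665, 8203 and 5985 CPM in Sirt5-/- livers and 2482, 3014 and 62922 CPM in Sirt5+/+ livers, far above Col3a1, and was not called (log2 fold change -0.58 ± 1.304, adjusted p = 0.762). Without Sirt5+/+ replicate 3 it was called higher, at a log2 fold change of 2.54 (adjusted p = 0.0306), and likewise without the mitochondria-richest library of each genotype, at 1.42 (adjusted p = 0.0259). Its share of all counts was 2.71, 1.22 and 1.00% in Sirt5-/- livers and 0.244, 0.361 and 2.49% in Sirt5+/+ livers. Relative to the counts of mitochondrially encoded genes it was 6.65, 5.68 and 5.71% in Sirt5-/- livers and 3.38, 5.48 and 5.36% in Sirt5+/+ livers, so the 2 libraries with the most mitochondrial counts had the most Col19a1 counts, and the 2 with the fewest had the fewest. The length that links its counts to its TPM was 1053 to 1092 bases in the 6 libraries, where its 3 annotated transcripts have 5441, 4266 and 3336 bases. None of its 31-base words occurs in a transcript of a mitochondrial or other gene of GENCODE M21. The cause of its level was not tested, and it is left out of the sums of collagen levels below.

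**Figure D3:**
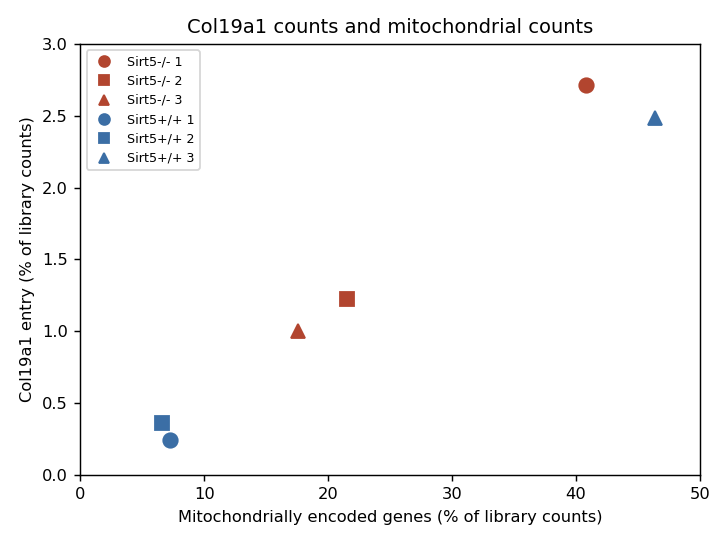
Col19a1 counts against counts of mitochondrially encoded genes, each as percent of a library's counts, for 3 Sirt5-/- and 3 Sirt5+/+ livers. Col19a1 runs from 0.244 to 2.71% and mitochondrial genes from 6.58 to 46.4%, and the same 2 libraries, Sirt5-/- replicate 1 and Sirt5+/+ replicate 3, are highest in both.

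By TPM the make-up of collagen RNA differed between genotypes. TPM divides by a length that can differ between libraries, and the length linking counts to TPM did not overlap between genotypes for 5 collagens used below. It averaged 5990 bases in Sirt5-/- and 4786 in Sirt5+/+ libraries for Col3a1, 2430 and 2885 for Col4a2, 3767 and 4385 for Col4a5, 2702 and 3071 for Col6a1, and 1622 and 2216 for Col14a1. This length overlapped for Col1a1, Col1a2, Col4a1, Col5a1, Col5a2, Col5a3, Col6a2, Col6a3, Col15a1, Col18a1, Col19a1 and Col27a1. It was not computed for collagens with few counts in any library, such as Col12a1, with 15 counts in Sirt5+/+ replicate 3. The share of all genes without overlap in length was not computed. The part of these lengths in the TPM shares, ranks and ratios was not tested. Fibrillar chains were 63.5, 59.7 and 56.7% of the summed collagen TPM in Sirt5-/- livers, against 19.85, 28.7 and 38.3% in Sirt5+/+ livers. Basement membrane chains were 21.8, 23.8 and 27.5% in Sirt5-/- livers and 67.5, 55.8 and 45.1% in Sirt5+/+ livers. Both shares separated the genotypes, with Sirt5+/+ replicate 3 the closest to the Sirt5-/- livers. The share of the remaining types was 14.7, 16.5 and 15.8% in Sirt5-/- livers and 12.6, 15.5 and 16.6% in Sirt5+/+ livers, which overlap. By counts, without regard to length, it was 7.45, 8.75 and 8.40% in Sirt5-/- livers and 9.09, 11.8 and 9.95% in Sirt5+/+ livers, lower in every Sirt5-/- liver.

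One gene makes most of the basement membrane share in Sirt5+/+ livers. Type XVIII alone was 7.80, 6.90 and 5.63% of collagen TPM in Sirt5-/- livers and 58.3, 46.5 and 34.0% in Sirt5+/+ livers, while the type IV chains were 12.2, 14.4 and 18.8% in Sirt5-/- livers and 8.26, 8.07 and 9.496% in Sirt5+/+ livers. Type I was 24.5, 28.65 and 25.9% in Sirt5-/- livers and 7.84, 10.4 and 14.3% in Sirt5+/+ livers. Type III was 35.6, 27.9 and 27.45% in Sirt5-/- livers and 9.92, 14.3 and 17.3% in Sirt5+/+ livers. The shares of types I, III and IV were thus each higher, and that of type XVIII lower, in all 3 Sirt5-/- livers. Shares of a total are tied to each other, so a fall of Col18a1 by itself raises the rest.

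The order of levels changed with it. In Sirt5-/- livers Col3a1 led at 218 ± 63.5 TPM, followed by Col1a2 at 104 ± 46.0, Col1a1 at 96.2 ± 40.8, Col4a2 at 67.0 ± 36.7 and Col18a1 at 49.0 ± 15.2 TPM (SD, n = 3); from Col1a2 downwards the mean ± SD ranges of neighbours overlap, and those of Col3a1 and Col1a2 do not. In Sirt5+/+ livers Col18a1 led at 157 ± 113 TPM, followed by Col3a1 at 39.0 ± 22.01, Col14a1 at 19.6 ± 12.3, Col1a2 at 16.9 ± 9.66 and Col4a2 at 15.5 ± 9.37 TPM, and the ranges of all neighbours overlap. These ranges are across livers and do not compare genes within a liver. Col18a1 stood above Col3a1, and Col3a1 above Col14a1, in each Sirt5+/+ liver. Col3a1 stood above Col1a2, Col1a2 above Col1a1, and Col1a1 above Col4a2 in each Sirt5-/- liver. The remaining neighbours named changed order between livers. Summed collagen TPM was 409, 884 and 958 in Sirt5-/- livers and 424, 415 and 90.25 in Sirt5+/+ livers, which overlap, and unscaled collagen counts had a 3.35-fold ratio of means. TMM-scaled sums were 2738, 2949.9 and 2786 CPM in Sirt5-/- livers and 1489.8, 1283 and 1134 CPM in Sirt5+/+ livers, a 2.17-fold ratio of means. Without Col18a1 the sums were 2615, 2819 and 2682 CPM in Sirt5-/- livers and 619.8, 720.1 and 858 CPM in Sirt5+/+ livers, a 3.69-fold ratio.

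**Figure D4:**
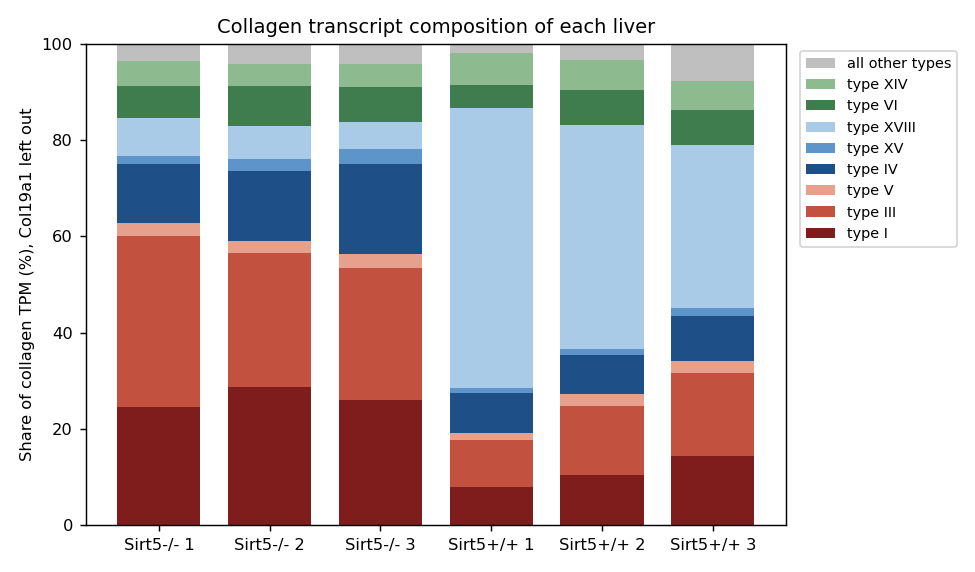
Share of summed collagen TPM without Col19a1 (percent, bars stacked to 100) by collagen type in each of the 3 Sirt5-/- and 3 Sirt5+/+ livers. Types I and III take the most in Sirt5-/- livers, and type XVIII takes 34.0 to 58.3% in Sirt5+/+ livers against 5.63 to 7.80% in Sirt5-/- livers.

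Ratios of TPM within a library do not depend on the scaling between libraries, and 14 were compared. With 3 livers a group the smallest two-sided exact permutation p is 0.1, so no ratio can pass a threshold of 0.05, and the smallest adjusted over 14 ratios was 0.311. In 4 ratios the genotypes did not overlap. Col18a1 to Col4a1 was 2.33, 1.52 and 0.936 in Sirt5-/- livers and 22.2, 15.1 and 10.98 in Sirt5+/+ livers. Col14a1 to Col1a1 was 0.430, 0.354 and 0.389 in Sirt5-/- livers and 1.80, 1.49 and 0.909 in Sirt5+/+ livers. Col5a1 to Col5a2 was 0.471, 0.535 and 0.376 in Sirt5-/- livers and 2.103, 0.799 and 0.662 in Sirt5+/+ livers. These 3 were lower in Sirt5-/- livers. Col4a5 to Col4a1 was 0.482, 0.319 and 0.294 in Sirt5-/- livers, above 0.0826, 0.134 and 0.286 in Sirt5+/+ livers, by a narrow margin in the closest pair.

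The ratios between the type I chains, between Col4a1 and Col4a2, and between types III and I overlapped between genotypes. Col1a1 to Col1a2 was 0.955, 0.880 and 0.953 in Sirt5-/- livers and 0.857, 0.665 and 0.897 in Sirt5+/+ livers (exact permutation p = 0.2). Col4a1 to Col4a2 was 0.484, 0.564 and 0.569 in Sirt5-/- livers and 0.483, 0.684 and 0.548 in Sirt5+/+ livers (exact permutation p = 0.9). Col3a1 to Col1a1 was 2.96, 2.08 and 2.17 in Sirt5-/- livers and 2.73, 3.42 and 2.54 in Sirt5+/+ livers (exact permutation p = 0.3). Overlap does not show that the ratios are equal.

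**Figure D5:**
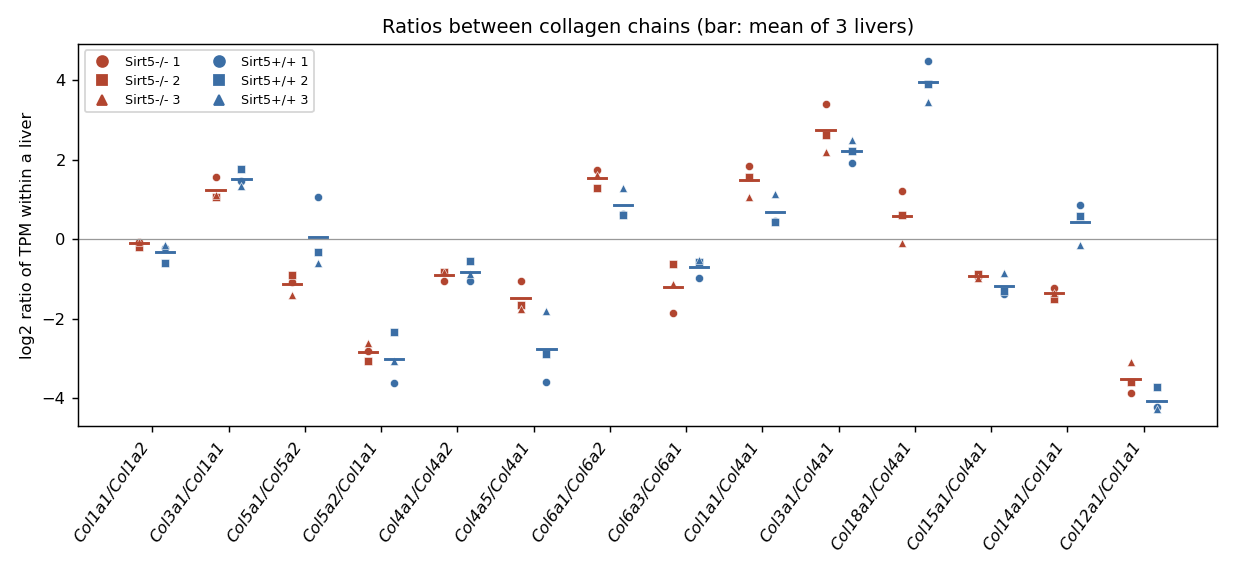
Log2 ratio of TPM for 14 pairs of collagen genes in each library, Sirt5-/- left of Sirt5+/+, with points for single livers and bars for means of 3. The genotypes separate for Col18a1/Col4a1, Col14a1/Col1a1, Col5a1/Col5a2 and Col4a5/Col4a1 and overlap for the other 10 ratios.

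Collagen chains are hydroxylated, folded and exported before enzymes trim and crosslink them outside the cell. Of 39 listed genes of these steps, 34 were tested, 17 rose and 5 fell, with a median log2 fold change of 1.07, where 17.4% of all genes tested were called higher and 17.1% lower. With library totals 16 of them were called higher and 0 lower. The 3 risen genes with the smallest p act on collagen outside the cell. Loxl3, a crosslinking lysyl oxidase, had 13.6, 12.6 and 12.2 CPM in Sirt5-/- livers and 1.99, 2.07 and 2.49 CPM in Sirt5+/+ livers (2.57 ± 0.25, adjusted p = 0.00146). Pcolce, which speeds removal of the C-terminal propeptide of fibrillar collagens, had 80.3, 68.0 and 73.3 CPM in Sirt5-/- livers and 16.1, 11.3 and 12.7 CPM in Sirt5+/+ livers (2.46 ± 0.25, adjusted p = 0.00146). Loxl2 had 31.8, 26.5 and 27.6 CPM in Sirt5-/- livers and 8.11, 10.2 and 9.30 CPM in Sirt5+/+ livers (1.64 ± 0.22, adjusted p = 0.00205). For all 3 the groups were far apart relative to the spread within them. Serpinh1, the collagen chaperone HSP47, named here after its values were seen, had a log2 fold change of 2.48 ± 0.35 (adjusted p = 0.00235).

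The 5 listed genes that fell, of 34 tested, are a share no higher than the 17.1% of all genes tested that were called lower. They included 4 of vesicle export. With library totals none of the 5 was called (adjusted p of 0.278 for Mia2, 0.445 for Mia3, 0.705 for Sec24d, 0.790 for Sec23a and 0.548 for P4hb). Mia2 and Mia3 encode the receptors TALI and TANGO1, which load large cargo such as procollagen into vesicles at the endoplasmic reticulum. Mia2 had 58.8, 59.4 and 53.2 CPM in Sirt5-/- livers and 196, 212 and 126 CPM in Sirt5+/+ livers (-1.64 ± 0.29, adjusted p = 0.00426). Mia3 had 24.3, 31.3 and 29.4 CPM in Sirt5-/- livers and 76.2, 92.5 and 59.7 CPM in Sirt5+/+ livers (-1.43 ± 0.26, adjusted p = 0.00490). Sec24d, a coat protein of the same vesicles, had 26.9, 22.7 and 22.1 CPM in Sirt5-/- livers and 51.5, 44.0 and 66.0 CPM in Sirt5+/+ livers (-1.17 ± 0.25, adjusted p = 0.00835), a call that ended without Sirt5-/- replicate 2 (0.0601) or Sirt5-/- replicate 3 (0.0570). The remaining members that fell were Sec23a, also of that coat, and P4hb, a subunit of prolyl hydroxylase that is abundant in secretory cells. The call of Sec23a ended without Sirt5-/- replicate 2 or 3, and that of P4hb when any library other than Sirt5+/+ replicate 3 was left out (adjusted p of up to 0.0869 and 0.153). Hepatocytes secrete much protein by the same route, and 5 of 8 hepatocyte markers were called lower in Sirt5-/- livers, as given above. The part of this in the fall was not tested.

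Of 22 listed collagen receptor and breakdown genes, 17 were tested, 10 rose and 0 fell, with a median log2 fold change of 1.59. Over all genes tested 17.4% were called higher and 17.1% lower. Leaving out Sirt5-/- replicate 3 gave 6 higher and 0 lower, and leaving out Sirt5+/+ replicate 3 gave 13 higher and 3 lower. Over all genes tested, the first of these fits called 1441 higher and 1090 lower, and the second 3991 higher and 3656 lower. Ddr1, a receptor tyrosine kinase that collagen activates, had 39.3, 39.4 and 45.9 CPM in Sirt5-/- livers and 6.36, 5.68 and 7.21 CPM in Sirt5+/+ livers (2.70 ± 0.23, adjusted p = 0.00146). Timp1, an inhibitor of the metalloproteinases that cut collagen, had 22.8, 20.8 and 24.3 CPM in Sirt5-/- livers and 2.37, 3.00 and 3.54 CPM in Sirt5+/+ livers (2.95 ± 0.25, adjusted p = 0.00146). Timp2, a second inhibitor, had 176, 202 and 226 CPM in Sirt5-/- livers and 39.1, 41.3 and 35.0 CPM in Sirt5+/+ livers (2.39 ± 0.26, adjusted p = 0.00156). Genes for enzymes that cut collagen were also among those that rose, with Mmp14 at a log2 fold change of 1.85 ± 0.25 (adjusted p = 0.00207) and Mmp13 at 3.65 ± 0.51 (adjusted p = 0.00225), both named after their values were seen. Mmp2 and Ctsk were not called (edgeR adjusted p of 0.271 and 0.0746), and Mmp8 and Mmp9 were too low to test.

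Markers of the cells known to make collagen, and of other liver cells, are given beside these results, where 34.5% of all genes tested were called. Of 6 portal fibroblast markers, 4 rose (Fbln2, Thy1, Eln and Cd34) and 0 fell. The summed level of all 6 was 145 to 197 CPM in Sirt5-/- livers and 31.3 to 44.5 CPM in Sirt5+/+ livers, most of it from the risen genes. Entpd2 and Gli1 were not called, at log2 fold changes of -0.58 and -0.39. Of 10 stellate cell markers, 2 rose (Pdgfrb and Rgs5), 1 fell (Reln) and 7 were not called, with a median log2 fold change of -0.18. Their sums were 161 to 203 CPM in Sirt5-/- livers and 90.8 to 122 CPM in Sirt5+/+ livers. Most of the Sirt5-/- sum is the risen genes. Pdgfrb had 45.2 to 67.9 CPM in Sirt5-/- livers and 10.5 to 16.6 CPM in Sirt5+/+ livers. Rgs5 had 67.7 to 77.4 CPM and 8.26 to 29.9 CPM. One of 6 myofibroblast markers rose (Postn), and the sums overlapped, at 103 to 173 CPM in Sirt5-/- livers and 18.4 to 117 CPM in Sirt5+/+ livers. Postn and Rgs5 each lost their call without Sirt5-/- replicate 2 or without Sirt5-/- replicate 3 (adjusted p of up to 0.0670 and 0.0645). None of 3 vascular smooth muscle markers was called by edgeR, at unadjusted p-values of 0.524 to 0.968, with sums of 14.9 to 24.4 CPM in Sirt5-/- livers and 8.07 to 60.7 CPM in Sirt5+/+ livers. Of 7 endothelial markers 3 fell (Lyve1, Stab2 and Tek) and 0 rose, with sums of 56.6 to 67.0 CPM in Sirt5-/- livers and 62.9 to 115 CPM in Sirt5+/+ livers. Tek lost its call without any 1 Sirt5-/- library or without Sirt5+/+ replicate 2 (adjusted p of up to 0.157). Of 6 cholangiocyte markers 2 rose (Krt7 and Krt19), with sums of 739 to 818 CPM in Sirt5-/- livers and 77.5 to 386 CPM in Sirt5+/+ livers. Most of this sum is Spp1, at 535 to 617 CPM in Sirt5-/- livers and 58.3 to 351 CPM in Sirt5+/+ livers. Spp1 was not called (edgeR adjusted p = 0.0621). One of 4 tested mesothelial markers rose (Msln), and the sums were 225 to 262 CPM in Sirt5-/- livers and 13.2 to 29.0 CPM in Sirt5+/+ livers. Nearly all of this sum is Msln, at 218 to 257 CPM in Sirt5-/- livers and 11.5 to 21.7 CPM in Sirt5+/+ livers, and no other mesothelial marker exceeded 4.85 CPM in a library. All 5 macrophage markers rose, with sums of 962 to 1975 CPM in Sirt5-/- livers and 278 to 339.6 CPM in Sirt5+/+ livers. No listed marker was at 0 in every library. The part of any of these cell types in the collagen results was not tested.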

How the data were processed

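Bulk RNA sequencing of 3 Sirt5-/- and 3 Sirt5+/+ livers was used, from 1 table deposited for the whole series. HISAT2 2.1.0, RSEM 1.3.1 and DESeq2 1.24.0 are named per the submitters' processing notes, with no roles. The genome build is not given in the sources used here; all 55536 gene IDs and names match GENCODE M21, whose GRCm38 coordinates are used. The expected counts were used as the authors deposited them, unscaled. The deposited TPM values, scaled by transcript length and library total, were made by the authors. Deposited log2 values (fold changes) and p-values belong to the authors' own comparison and served only to set the authors' calls beside those made here.

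Expected counts were rounded, filtered with edgeR filterByExpr (minimum count 10, minimum total 15), scaled with TMM, and tested two-sided by quasi-likelihood in edgeR 4.0.16, with genotype as the only term (Sirt5-/- minus Sirt5+/+). P-values were adjusted by Benjamini-Hochberg over 14799 genes at a threshold of 0.05, and the SE of a log2 fold change is its size over the root of its F statistic. The steps were tested on simulated data. Chain ratios have 0.1 TPM added to both genes and were tested as log2 values with exact permutation tests over 20 assignments of livers. The limit of 3 counts covers counting error only. Labels number the livers without naming cultures or litters, so each p-value reflects only the spread between these livers, which may be technical in part. Alternatives were other scalings and filters, DESeq2 1.42.0, limma 3.58.1 with voom, a replicate term and leaving out libraries. Gene-level values are given for every called collagen, the most abundant 3 of each class, both members of a ratio and, per list and direction, the 3 called genes with the smallest p. Collagen classes, gene lists and markers come from textbook knowledge, and all were chosen with earlier results of these data known.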

Additional observations from a re-analysis of the deposited data

How the results depend on the processing

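Across the alternatives, 13 to 24 collagen genes were called, against 19 in the result reported. Of the 19, 12 (Col1a1, Col1a2, Col3a1, Col4a1 to Col4a5, Col5a1, Col5a2, Col12a1 and Col15a1) kept their direction and call under every alternative run, and the other 7 kept their direction. The cause of the shifts below was not tested. Of the other collagens, 6 were called, against 2 with library totals, 2 at an adjusted p under 0.01 and 2 to 10 with a library left out. Of the receptor and breakdown genes, 10 were called, against 17 without the mitochondria-richest library of each genotype, 6 at an adjusted p under 0.01 and 6 to 16 with a library left out. Calls over all genes moved as well. They were 5100 of 14799 in the result reported and 7439 of 15527 without the mitochondria-richest libraries. At an adjusted p under 0.01 they were 2596, with library totals 2763, and with a library left out 2531 to 7647. The members tested also changed. Without the mitochondria-richest libraries they were 35 collagens and not 30, and 21 receptor and breakdown genes and not 17. The median log2 fold change of fibrillar collagens, 1.72, was 2.36 with library totals, 2.13 with the stricter filter, 2.44 without the mitochondria-richest libraries and 1.64 to 2.21 with a library left out. With library totals the medians were 2.27 for basement membrane and 1.68 for other collagens. The number of ratios without overlap, 4, was 5 to 8 with a library left out, where fewer livers make separation easier.

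None of the values that changed sign belonged to a gene called in the result reported, but Col19a1 was called higher without Sirt5+/+ replicate 3 and without the mitochondria-richest libraries. Col19a1 changed to a log2 fold change of 0.68 with library totals, 0.41 with limma-voom, 0.95 with the replicate block and 1.42 without the mitochondria-richest libraries. With a library left out, log2 fold changes ran from -1.69 to 2.54 for Col19a1, -0.0011 to 1.09 for Col4a6, -0.16 to 1.02 for Col11a2, -1.38 to 0.12 for Col13a1 and -0.023 to 0.30 for Col14a1; without Sirt5+/+ replicate 1 or 2 or Sirt5-/- replicate 2, Col11a2 was at -0.16, -0.046 and -0.025. Log2 ratio differences with a library left out ran from -0.13 to 0.51 for Col5a2/Col1a1 and -0.19 to 0.063 for Col4a1/Col4a2, with 0.0019 for the second without Sirt5-/- replicate 1. A pseudocount of 1 TPM gave -0.37 for Col5a2/Col1a1 and -0.41 for Col12a1/Col1a1, and CPM gave 0.061 for Col3a1/Col1a1, 0.15 for Col4a1/Col4a2 and -0.0012 for Col15a1/Col4a1.

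Same-numbered livers deviated together with correlations of -0.190, 0.115 and -0.203. The highest correlation of any pair was 0.266, between Sirt5-/- replicate 1 and Sirt5+/+ replicate 3, the libraries with the most mitochondrial counts. With 3 livers a genotype this check cannot tell whether the numbers pair livers. With the replicate block, 19 collagens were called, 17 higher and 2 lower, at medians of 1.74, 1.53 and 1.12 for fibrillar, basement membrane and other collagens, and 3643 genes were called in all, against 5100 without it. Under the block Col7a1 was no longer called (adjusted p = 0.105) and Col6a5 was (0.0381). Depth limits the low members: 14 collagens with at most 50 counts in a library were not tested.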
